A study of Mus musculus with 11 samples.

Results

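The genes described here make ribosomes: they encode RNA polymerase I, the small nucleolar ribonucleoproteins (snoRNPs), and the factors that cut, fold and assemble ribosomal RNA (rRNA). They are 51 of the 56748 genes in the count table, chosen by name for these roles with earlier results of these data known. All 51 were found by their Ensembl identifiers in GENCODE M21 (GRCm38). RNA was sequenced from mouse liver CD4 T cells after 5 weeks of chronic injection of carbon tetrachloride (CCl4), a hepatotoxin that causes liver fibrosis. The 6 Atg5-deficient libraries are labelled ATG5TLymph-/-, a T lymphocyte deletion of Atg5, which encodes a protein needed to form autophagosomes. The genotype label of the 5 wild-type libraries reads wildtype, which does not itself name the floxed, undeleted gene (ATG5fl/fl) given here for them. Both groups received CCl4, so no library shows the genes without liver injury. The labels name neither the Cre driver nor the age and sex of the mice, and they do not say whether each library came from its own mouse. A p-value here therefore measures only the spread between these samples. Flow-sorted cells are described in the design text but paraffin sections of fixed tissue in the extraction protocol, and which of the descriptions applies cannot be settled from the labels.

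A ribosome begins as a long precursor RNA that RNA polymerase I transcribes in the nucleolus. Box C/D and box H/ACA snoRNPs modify the precursor, the small subunit processome folds and cleaves the part that becomes the small subunit, and another set of factors builds the large subunit around the rest. T cells raise this program when they are activated and begin to divide, and proteins such as nucleolin and nucleophosmin are abundant in the nucleoli of dividing cells.

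Libraries held 30699408 to 47564440 counts. Within a group, any pair of libraries had a chi-square of 14.1 to 188 per degree of freedom over the genes, so no library was a copy of another. The wild-type libraries were uneven: pairs among replicates 1, 4 and 5 had 14.1 to 21.1, and pairs of these with replicate 2 or 3 had 109 to 188. Atg5-deficient pairs had 37.4 to 136. Of 17 library properties and summed marker lists, 0 passed an exact two-sided permutation test over the 11 libraries after Benjamini-Hochberg adjustment, and 1 had an unadjusted p under 0.05. That list was the 8 CD4 T cell markers (Cd3d, Cd3e, Cd3g, Cd4, Cd5, Cd2, Lck and Cd28), which summed to 2711 to 4041 CPM (counts scaled to library size) in Atg5-deficient libraries, beside 2685 to 2994 CPM in wild-type (exact permutation p = 0.0303, adjusted p = 0.515). The 10 hepatocyte markers summed to 65.1 to 1118 and 47.8 to 645 CPM, the 5 endothelial markers to 120.4 to 198 and 123 to 223 CPM, and the 2 CD8 T cell markers to 4.10 to 6.33 and 4.48 to 6.55 CPM. Of the 4 neutrophil markers 1 was at 0 in every library, and the list summed to at most 0.603 CPM. With the summed hepatocyte marker level as a covariate, the same 7 ribosome biogenesis genes fell as in the results below (median log2 fold change -0.17 over the 51). The part of the other lists in the results was not tested. In the ribosome biogenesis genes Atg5-deficient replicate 5 stood above the other 5 libraries of its group in many genes, and results that turn on it are given with and without it. Replicate 5 was singled out from these same values, so a fall gained by leaving it out is only a description. In bulk RNA, fewer cells of a type and less RNA per cell cannot be told apart.

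Transcripts of the ribosome biogenesis genes were on the whole slightly lower in Atg5-deficient CD4 T cells. The log2 fold change (Atg5-deficient against wild-type) was negative in 47 of the 51 genes and positive in Utp3, Utp6, Nop9 and Bysl, and the median over the 51 was -0.20, beside -0.0027 over all 17987 genes tested. By edgeR's quasi-likelihood test, adjusted by Benjamini-Hochberg over all tested genes with a threshold of 0.05, 7 of the 51 genes (13.7%) fell and 0 rose, where 2.41% of all tested genes fell and 4.43% rose (6.84% in either direction). The genes that fell were Utp20, Gnl3, Polr1b, Rrp12, Polr1a, Nop56 and Heatr1. Before adjustment, 21 of the 51 genes were lower and 0 higher at p under 0.05, beside 1914 lower and 2291 higher of all 17987 tested genes. All 51 passed the filter on low counts, and the lowest count of any of them in any library was 177, for Gar1. Fold changes ranged from -0.57 for Utp20 to 0.11 for Utp6. No rise was called under any of 20 other settings, while the number of falls went from 1 to 15. The 7 falls became 3 without Atg5-deficient replicate 1, Atg5-deficient replicate 4, wild-type replicate 1 or wild-type replicate 5, and 11 without Atg5-deficient replicate 5, where the median was -0.25 and 49 of the 51 fold changes were negative. In the 8 libraries with consecutive label numbers (Atg5-deficient replicates 1 to 5 and wild-type replicates 2 to 4), which leave 5 against 3, Utp20 alone passed.

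**Figure D1:**
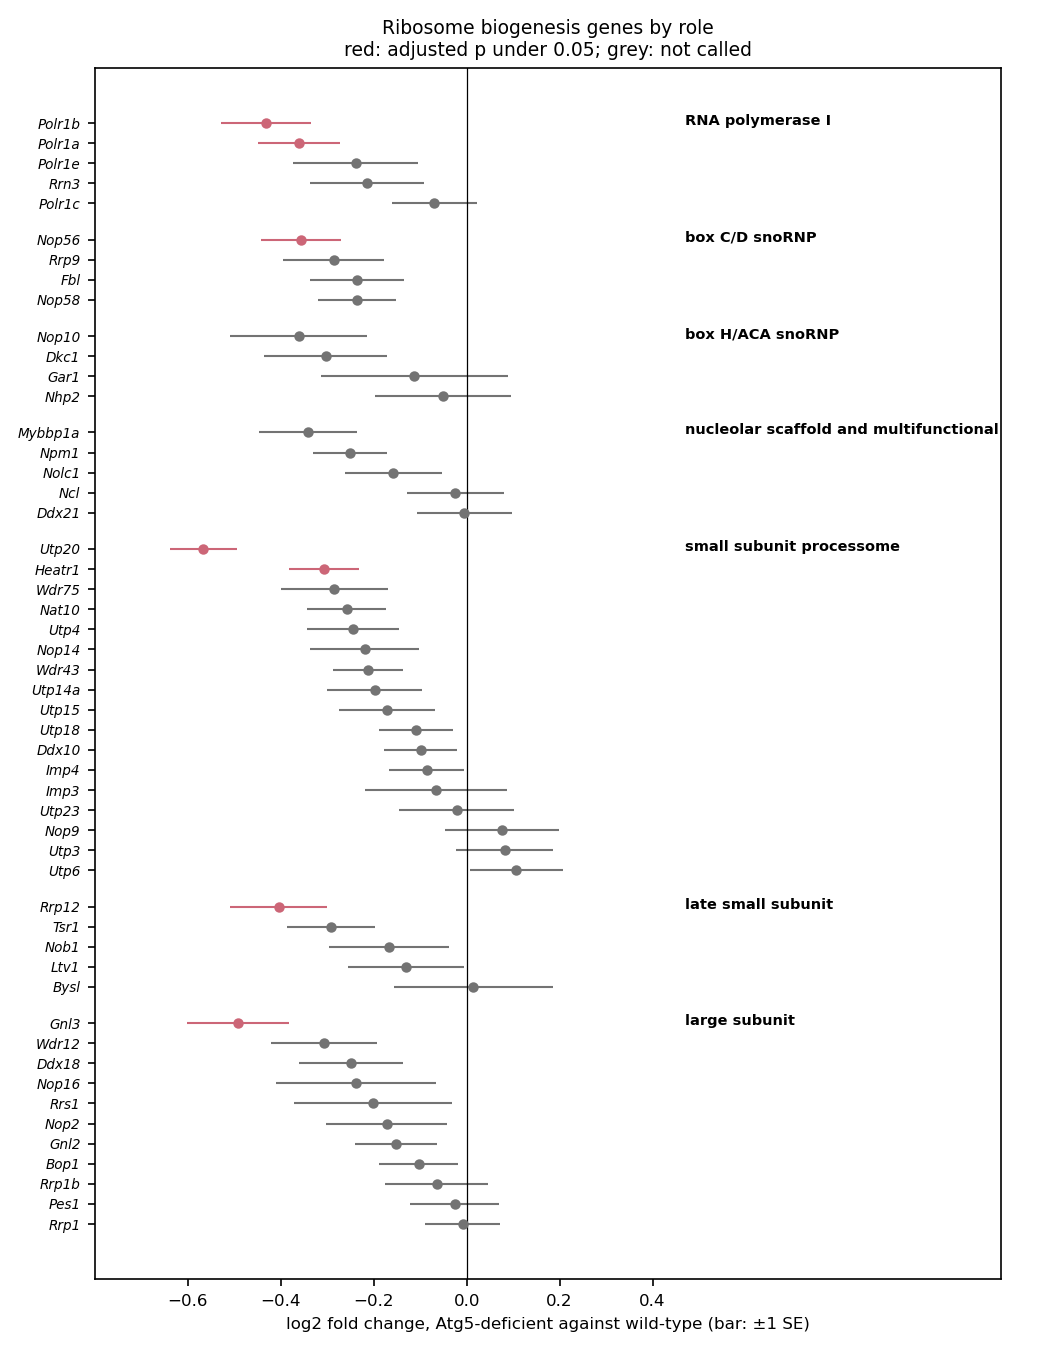
Log2 fold change (x axis) of each of the 51 genes, Atg5-deficient against wild-type, with bars of 1 standard error, in blocks by role. Red points are the 7 genes past the threshold, all to the left of 0; grey points run from -0.36 (Nop10) to 0.11 (Utp6).

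The groups did not overlap, with every Atg5-deficient library below every wild-type library, in 7 genes: Polr1a, Polr1b, Utp20, Wdr43, Heatr1, Nat10 and Gnl3. Across all tested genes 4.86% were separated, 2.08% in that direction and 2.78% in the other, and 0 of the 51 genes were separated upwards. Another 9 genes had 5 of the 6 Atg5-deficient libraries below all wild-type libraries, and how many of all tested genes did so was not counted. Replicate 5 was the exception in Fbl, Rrp9, Dkc1, Npm1, Mybbp1a and Nop14, and replicate 3 in Nop56, Tsr1 and Rrp12. The median coefficient of variation over the 51 genes was 13.6% in Atg5-deficient and 9.20% in wild-type libraries, and it was larger in the Atg5-deficient group for 44 of the 51 (86.3%), beside 65.1% of all tested genes. Without Atg5-deficient replicate 5 the median was 10.2% in that group, and it was larger there for 35 of the 51 (68.6%), beside 60.1% of all tested genes.

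The 5′ flanks of these genes were searched for letters of motifs common in promoters of growth genes. RefSeq promoters (GRCm38.p6, 250 bases before to 50 after the start) were available for 43 of the 51 genes. The E-box CACGTG, the element that MYC and related factors bind, was present in 11 of 43 (25.6%), beside 7.15% of all 32851 promoters and 11.5% of those of 10456 other tested genes. The 32851 are single promoter entries of tested and untested genes, whereas the other shares are per gene, so the 10456 are the closer comparison. The ETS core CCGGAA was present in 18 of 43 (41.9%, beside 14.9% and 31.0%) and the GC box GGGCGG in 31 (72.1%, beside 35.7% and 66.2%), with both strands searched. The median log2 fold change was -0.21 with an E-box and -0.21 without one, and 1 of the 6 fallen genes with a promoter entry, Utp20, held an E-box, 37 bases after its start. A match is a string of letters and not a measured binding site. To show what these flanks look like, 4 stretches upstream of the start follow, 5′ to 3′ on the gene's own strand, for an RNA polymerase I initiation factor and a large subunit methyltransferase gene with an E-box upstream, and for Polr1b and Utp20, a fallen RNA polymerase I subunit and a fallen processome gene, which have a GC box and no E-box upstream. Polr1a and Heatr1, which also fell, held no GC box in their windows. Capitals mark the E-box in the first pair and the GC box in the others, which in Utp20 reads CCGCCC because it lies on the opposite strand.
Rrn3, chr16:13780449-13780698, plus strand: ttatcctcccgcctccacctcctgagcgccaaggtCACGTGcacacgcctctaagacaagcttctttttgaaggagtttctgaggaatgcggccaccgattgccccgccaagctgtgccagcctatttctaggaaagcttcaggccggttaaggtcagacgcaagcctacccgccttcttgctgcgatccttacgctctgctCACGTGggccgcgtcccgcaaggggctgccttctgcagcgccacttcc
Nop2, chr6:125131633-125131882, plus strand: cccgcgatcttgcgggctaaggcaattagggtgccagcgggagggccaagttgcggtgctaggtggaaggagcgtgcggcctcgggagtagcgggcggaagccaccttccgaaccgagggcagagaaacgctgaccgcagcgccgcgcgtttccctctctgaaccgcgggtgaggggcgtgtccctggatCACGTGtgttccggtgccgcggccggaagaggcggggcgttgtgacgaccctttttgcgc
Polr1b, chr2:129100746-129100994, plus strand: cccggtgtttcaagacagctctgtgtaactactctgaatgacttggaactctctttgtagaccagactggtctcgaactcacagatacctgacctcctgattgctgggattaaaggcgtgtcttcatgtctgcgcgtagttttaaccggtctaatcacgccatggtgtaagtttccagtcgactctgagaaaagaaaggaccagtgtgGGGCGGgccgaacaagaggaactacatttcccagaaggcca
Utp20, chr10:88826815-88827064, minus strand: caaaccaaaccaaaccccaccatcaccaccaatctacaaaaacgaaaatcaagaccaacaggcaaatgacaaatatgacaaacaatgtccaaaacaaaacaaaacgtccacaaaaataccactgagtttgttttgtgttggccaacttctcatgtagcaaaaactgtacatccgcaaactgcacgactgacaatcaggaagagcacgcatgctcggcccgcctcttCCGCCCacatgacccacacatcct

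RNA polymerase I transcribes the rRNA precursor, and 2 of the 5 genes listed here for it fell: Polr1a and Polr1b. They encode the largest and second-largest subunits, which form the catalytic centre. Polr1b (ENSMUSG00000027395, chr2:129100995-129126594, plus strand) had 15.3, 16.4 and 20.2 CPM as the lowest, median and highest of the Atg5-deficient libraries, and 25.2, 24.4, 20.5, 22.8 and 22.4 CPM in wild-type replicates 1 to 5. The groups did not overlap, although Atg5-deficient replicate 6 lay just under wild-type replicate 3. The means were 17.1 ± 1.71 CPM (SD, n = 6) and 23.1 ± 1.85 CPM (SD, n = 5), a log2 fold change of -0.43 (SE 0.10, edgeR adjusted p = 0.0182). Polr1a (ENSMUSG00000049553, chr6:71909053-71984935, plus strand) had 76.7, 85.7 and 91.6 CPM as the lowest, median and highest Atg5-deficient values and 122, 94.9, 101, 105 and 127 CPM in the wild-type libraries. Again no library crossed, and wild-type replicates 1 and 5 stood well above the other wild-type libraries. Its means were 85.7 ± 5.69 and 110.1 ± 13.8 CPM, a log2 fold change of -0.36 (SE 0.09, edgeR adjusted p = 0.0270). The Polr1a call was lost without Atg5-deficient replicate 1, 2 or 4 or wild-type replicate 1, 4 or 5 (adjusted p up to 0.0767), and the Polr1b call without wild-type replicate 1 (0.0556) and with no low-count filter (0.0617). In the consecutive libraries Polr1a had a log2 fold change of -0.23 (edgeR adjusted p = 0.249) and Polr1b of -0.45 (edgeR adjusted p = 0.0725).

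The 3 other genes of this group did not pass. Rrn3, which encodes the factor that brings the polymerase to the rDNA promoter (its flank is printed above), had 26.2 ± 4.91 and 30.4 ± 2.12 CPM (log2 fold change -0.21, edgeR adjusted p = 0.314). In Rrn3, Atg5-deficient replicates 5 and 6 lay within the wild-type range at 32.1 and 31.7 CPM and the other 4 lay below it. Polr1e, a subunit of the polymerase's initiation and elongation heterodimer, had 12.9 ± 2.26 and 15.2 ± 1.71 CPM, and Polr1c, a subunit that RNA polymerase III also contains, 17.6 ± 1.29 and 18.4 ± 1.16 CPM, the smallest difference of the 5 (log2 fold change -0.07, SE 0.09). Of the 10 other RNA polymerase I genes tested, which include further subunits, 0 were called (edgeR). At an unadjusted p under 0.05, 2 were lower (Cd3eap and Taf1a) and 1 higher (Polr1d, log2 fold change 0.26, edgeR adjusted p = 0.0983). Among the 10, Ubtf, which encodes the factor that keeps rDNA open for transcription, had 250.4 ± 39.0 and 229 ± 18.2 CPM (log2 fold change 0.13, SE 0.11, edgeR adjusted p = 0.511).

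**Figure D2:**
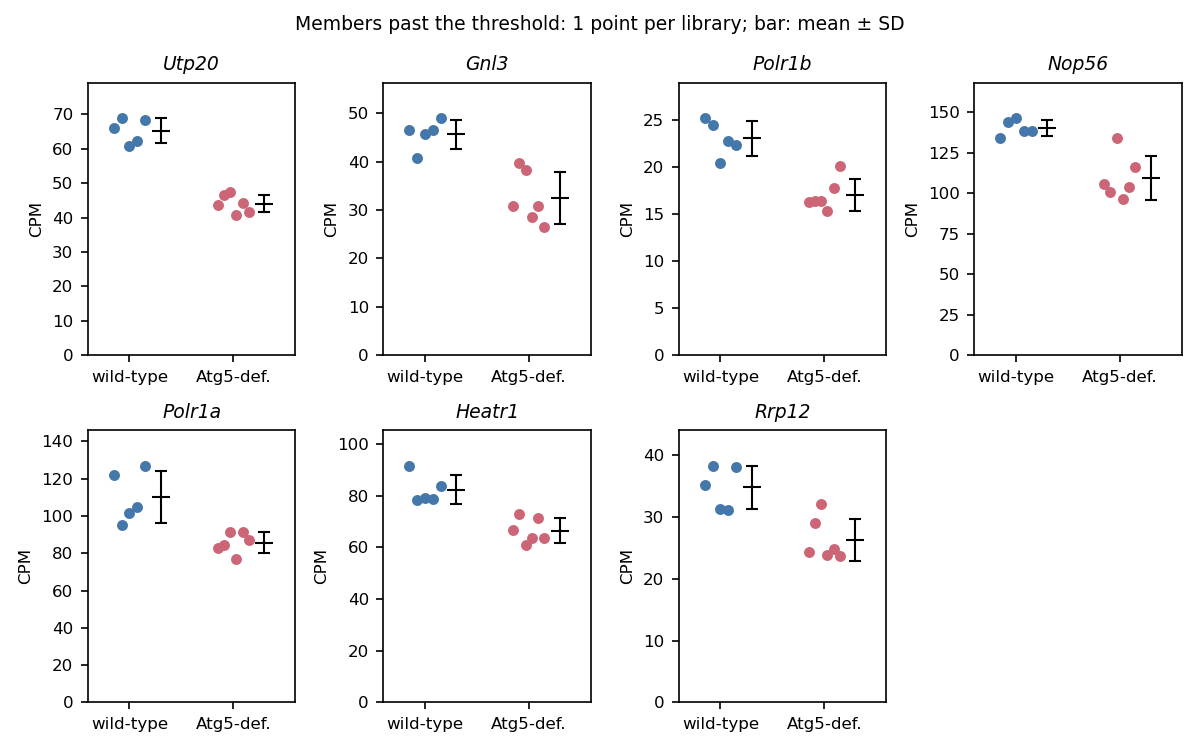
CPM (y axis, from 0) of the 7 called genes, 1 point per library in wild-type (blue) and Atg5-deficient (red) libraries, with the mean and SD as a bar. Points of both colours share no range in Utp20, Gnl3, Polr1b, Polr1a and Heatr1; in Nop56 and Rrp12 the highest Atg5-deficient library (134 and 32.0 CPM) lies within the wild-type range.

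Box C/D snoRNPs carry out ribose methylation of rRNA. All 4 of the genes were lower on average, with a median log2 fold change of -0.26, and 1 fell. Nop56 (ENSMUSG00000027405, chr2:130274430-130279313, plus strand), a core protein of the particle, had 96.5, 105 and 134 CPM as the lowest, median and highest Atg5-deficient values and 134, 144, 146, 139 and 138 CPM in wild-type replicates 1 to 5. Atg5-deficient replicate 3, at 134 CPM, reached the lowest wild-type library and the other 5 lay below all of them. The means were 109.6 ± 13.7 and 140.2 ± 4.94 CPM, a log2 fold change of -0.36 (SE 0.09, edgeR adjusted p = 0.0259). The call was lost without Atg5-deficient replicate 1, 2 or 4 or wild-type replicate 3, 4 or 5 (adjusted p up to 0.0647). Its partner Nop58 had 48.7 ± 4.66 and 57.3 ± 4.05 CPM (log2 fold change -0.24, adjusted p = 0.101). Fbl, the methyltransferase fibrillarin, had 51.5 ± 8.40 and 60.7 ± 2.65 CPM (-0.24, adjusted p = 0.175), and Rrp9, a protein of the U3 particle, 18.4 ± 2.50 and 22.5 ± 2.19 CPM (-0.29, adjusted p = 0.128). In Fbl, Atg5-deficient replicate 5 had 67.6 CPM, above every wild-type library, while the other 5 had 44.5 to 51.7 CPM, below all of them. Without replicate 5 the Fbl fall passed (log2 fold change -0.33, adjusted p = 0.0216).

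Several of the 51 genes hold snoRNA genes inside their own transcripts, from which the snoRNAs are released by processing of the spliced intron. GENCODE places 20 snoRNA genes within 7 of the 51 genes on the same strand, and 15 had enough counts to be tested, of which 2 fell and 0 rose. The 2 that fell were box C/D snoRNAs. They are printed because they are the only tested snoRNAs of these hosts past the threshold; capitals mark the D box CTGA near the 3′ end and, where the letters TGATGA of the C box occur, also those.
Snord82, in Ncl, chr1:86356261-86356330, minus strand: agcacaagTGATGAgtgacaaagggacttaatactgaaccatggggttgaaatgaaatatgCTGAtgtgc
Snord57, in Nop56, chr2:130278016-130278087, plus strand: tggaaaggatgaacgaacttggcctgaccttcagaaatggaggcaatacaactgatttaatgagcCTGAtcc
Snord82 had 1.19 to 3.06 CPM in the Atg5-deficient libraries, with a mean of 1.73 ± 0.693 CPM, and 2.11, 12.6, 12.9, 3.84 and 2.19 CPM in wild-type replicates 1 to 5 (log2 fold change -1.95, SE 0.50, edgeR adjusted p = 0.0365). Snord57 had 1.38 to 3.71 CPM, with a mean of 2.37 ± 0.835 CPM, and 3.00, 10.5, 16.5, 4.36 and 3.41 CPM in the wild-type libraries (-1.68, SE 0.44, adjusted p = 0.0377). In both, wild-type replicates 2 and 3 stood far above the other wild-type libraries, which lay near the Atg5-deficient values. In wild-type replicates 2 and 3 the 20 most counted genes also took 33.1% and 30.3% of the counts, beside 22.0% to 22.6% in the other wild-type and 21.5% to 28.0% in the Atg5-deficient libraries, and the part of this in the snoRNA levels was not tested. Each call held in 4 of 11 fits that left out 1 library. Both were lost without wild-type replicate 2 or 3 or Atg5-deficient replicate 1, 2, 4 or 6, and also without Atg5-deficient replicate 3 (Snord82) or 5 (Snord57), with no low-count filter and with limma-voom. Over the fits that left out a library, the adjusted p rose to as much as 0.0837 for Snord82 and 0.0927 for Snord57. The host Ncl had a log2 fold change of -0.02 (adjusted p = 0.916). The bases of Snord57 also lie in annotated exons of Nop56, so which of them the reads there came from cannot be told. Exonic bases are likewise shared by Gm24451, Gm23187 and Gm23650 with Nop56, and by Snord69, Gm24916 and Snord19 with Gnl3. Snora75 shares them with Ncl and Gm26293 with Nop58. The part of these overlaps in the host levels was not tested.

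Box H/ACA snoRNPs convert uridines of rRNA to pseudouridine, and 0 of their 4 genes passed (edgeR; Nop10 and Dkc1 were lower at an unadjusted p under 0.05), although all were lower on average (median log2 fold change -0.21). Nop10 (chr2:112261926-112263269, plus strand), the smallest protein of the particle, had 9.33, 13.9 and 17.7 CPM as the lowest, median and highest Atg5-deficient values and 17.6, 19.7, 14.3, 16.7 and 19.7 CPM in wild-type replicates 1 to 5. Replicate 3 was lowest and replicate 5 highest among the Atg5-deficient libraries, and the groups overlapped. The log2 fold change was -0.36 (SE 0.15, edgeR adjusted p = 0.153). Dkc1 (chrX:75095854-75109777, plus strand), the pseudouridine synthase dyskerin, had 23.4, 31.2 and 44.2 CPM against 39.0, 42.0, 37.3, 35.4 and 42.3 CPM. Only Atg5-deficient replicate 5, at 44.2 CPM, exceeded the lowest wild-type library. The log2 fold change of Dkc1, -0.30 (SE 0.13), missed the threshold (adjusted p = 0.183), and without replicate 5 it was -0.42 and passed (adjusted p = 0.0323). Gar1 and Nhp2, the other proteins of the particle, had 7.75 ± 2.63 and 8.39 ± 0.283 CPM, and 16.0 ± 3.19 and 16.6 ± 2.34 CPM. Gar1 spanned 4.64 CPM in Atg5-deficient replicate 6 to 12.5 CPM in replicate 5, a wider range than the wild-type libraries, which lay between 7.96 and 8.74 CPM.

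Genes for 5 multifunctional nucleolar proteins include the 3 most abundant of the 51 per kilobase of exon, and 0 of these 5 passed (edgeR; Npm1 and Mybbp1a were lower at an unadjusted p under 0.05). Per kilobase of exon, Npm1 had 169.9 CPM and Ncl 85.8 CPM in wild-type libraries, the highest levels of the 51, followed by Ddx21 (47.8), Rrp1 (46.7) and Utp3 (38.4); Wdr12 (2.90) was the lowest. Ncl, nucleolin, had 751, 821 and 1062 CPM as the lowest, median and highest Atg5-deficient values and 762, 955, 981, 832 and 838 CPM in wild-type replicates 1 to 5, so the groups covered the same range (means 859 ± 117 and 874 ± 91.8 CPM, log2 fold change -0.02, SE 0.10, adjusted p = 0.916). Npm1, nucleophosmin, whose processed pseudogenes could take or give reads, had 352, 365 and 432 CPM against 425, 489, 431, 447 and 473 CPM. Only Atg5-deficient replicate 5 reached the wild-type range, and the fall missed the threshold (log2 fold change -0.25, SE 0.08, edgeR adjusted p = 0.0706). Mybbp1a, a nucleolar MYB-binding protein, had 85.1, 104 and 132 CPM against 114, 149, 136, 128 and 136 CPM, again with replicate 5 alone inside the wild-type range (-0.34, SE 0.11, adjusted p = 0.0654). Both passed without replicate 5 (adjusted p = 0.0395 for Npm1 and 0.0203 for Mybbp1a). Ddx21, an RNA helicase of the nucleolus, stood at 247 ± 37.8 and 248 ± 17.4 CPM, and Nolc1, a scaffold for snoRNPs, at 78.2 ± 12.2 and 87.2 ± 8.09 CPM.

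The small subunit processome assembles on the nascent precursor, and 2 of the 17 genes listed here for it fell, Utp20 and Heatr1. Utp20 (ENSMUSG00000004356, chr10:88746607-88826804, minus strand), a very large scaffold protein, had the largest fall of the 51. It had 40.9, 44.0 and 47.3 CPM as the lowest, median and highest Atg5-deficient values against 66.1, 68.8, 60.8, 62.2 and 68.3 CPM. The gap between the groups, from 47.3 to 60.8 CPM, was wider than the range within either. The means were 44.1 ± 2.54 and 65.2 ± 3.59 CPM, that is 67.5% of the wild-type mean, with a log2 fold change of -0.57 (SE 0.07, edgeR adjusted p = 0.00165). It passed in all 11 fits that left out a library (log2 fold change -0.59 to -0.54) and in all 9 other settings. Heatr1 (ENSMUSG00000050244, chr13:12395027-12440289, plus strand), a processome protein that also promotes transcription by RNA polymerase I, had 60.8, 65.2 and 72.9 CPM against 91.6, 78.3, 79.2, 78.5 and 83.6 CPM. No library crossed, and wild-type replicate 1 was the highest. The means were 66.5 ± 4.71 and 82.3 ± 5.64 CPM, a log2 fold change of -0.31 (SE 0.08, edgeR adjusted p = 0.0273). The Heatr1 call was lost without Atg5-deficient replicate 1 or 4 or wild-type replicate 1 or 5 (edgeR adjusted p up to 0.0771) and with no low-count filter (0.0880). It was also lost in the consecutive libraries (log2 fold change -0.23, edgeR adjusted p = 0.239). Heatr1 shares 155 exonic bases with Lgals8 on the other strand, and the strand setting of the counting is not given.

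Of the other 15 processome genes, 12 were lower and 3 higher on average, and 0 passed (edgeR; 4 lower and 0 higher at an unadjusted p under 0.05). Wdr43, the most counted of them, had 73.8, 85.5 and 94.5 CPM against 101, 97.2, 97.1, 98.7 and 103 CPM. Although no library crossed, the fall missed the threshold (log2 fold change -0.21, SE 0.08, edgeR adjusted p = 0.0996). Nat10, an acetyltransferase of rRNA, likewise did not overlap and did not pass, with 31.0 to 35.3 CPM in the Atg5-deficient and 35.9 to 45.1 CPM in the wild-type libraries (-0.26, SE 0.09, adjusted p = 0.0795). In Nop14, Atg5-deficient replicate 5 had 81.5 CPM, the highest of all 11 libraries, and the other 5 had 52.5 to 57.0 CPM, below the lowest wild-type value of 61.9 CPM. Utp3, Utp6 and Nop9 were higher on average by log2 values of 0.08, 0.11 and 0.08, each with replicate 5 as the highest library and replicate 3 as the lowest, and none passed (adjusted p of 0.564 or more). In Utp6, 3 Atg5-deficient libraries exceeded all wild-type libraries and 1 was under all of them. Of 36 further small subunit factors outside the 51, 1 fell (Diexf, also named Utp25; 20.98 ± 3.03 and 29.7 ± 4.71 CPM, log2 fold change -0.50, adjusted p = 0.0285, called in 6 of 11 fits with 1 library left out) and 0 rose.

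The later steps of small subunit maturation, which lead to export and final cleavage, are represented by 5 genes, of which 1 fell. Rrp12 (ENSMUSG00000035049, chr19:41862851-41896173, minus strand), an export factor for both subunits, had 23.7, 24.6 and 32.0 CPM as the lowest, median and highest Atg5-deficient values and 35.2, 38.3, 31.4, 31.1 and 38.1 CPM in wild-type replicates 1 to 5. Atg5-deficient replicate 3 overlapped the wild-type libraries and replicate 2, at 29.1 CPM, came close. The means were 26.3 ± 3.45 and 34.8 ± 3.49 CPM (log2 fold change -0.40, SE 0.10, edgeR adjusted p = 0.0336). This call was the least stable of the 7, lost without Atg5-deficient replicate 1, 4, 5 or 6 or wild-type replicate 1, 2 or 5 (adjusted p up to 0.0856). Tsr1, a GTPase-like factor of the pre-subunit, had 27.6, 30.5 and 35.9 CPM against 34.6, 40.1, 35.0, 35.9 and 42.5 CPM. Atg5-deficient replicate 3 was again the library inside the wild-type range (log2 fold change -0.29, SE 0.09, edgeR adjusted p = 0.0749), and without it the fall passed (edgeR adjusted p = 0.0226). Because replicate 3 is the library that overlapped, the fall gained by leaving it out is only a description. Tsr1 shares 1240 exonic bases with Srr on the other strand, which had 13.3% of its count. Nob1, the nuclease of the last cleavage, and Ltv1 were lower on average by log2 values of -0.17 and -0.13 without passing. Bysl had 20.2 ± 5.22 and 19.98 ± 2.80 CPM, and it shares 361 of its 3854 exonic bases with Ccnd3 on the other strand, which had 1069% of its count. Without a known strand setting, reads within that stretch cannot be told apart.

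Among the 11 large subunit genes all were lower on average and 1 fell. Gnl3 (ENSMUSG00000042354, chr14:31012433-31019152, minus strand) encodes nucleostemin, a nucleolar GTPase of proliferating cells. It had 26.6, 30.9 and 39.8 CPM as the lowest, median and highest Atg5-deficient values and 46.5, 40.8, 45.7, 46.7 and 48.9 CPM in wild-type replicates 1 to 5. The groups did not overlap, but Atg5-deficient replicates 2 and 3, at 39.8 and 38.3 CPM, came close to wild-type replicate 2. The means were 32.5 ± 5.35 and 45.7 ± 2.99 CPM, a log2 fold change of -0.49 (SE 0.11, edgeR adjusted p = 0.0175), and the call held in all 11 fits that left out a library. Wdr12 (-0.31, adjusted p = 0.116) forms a complex with Pes1 and Bop1, which lay closer to the wild-type level: Pes1 at 41.5 ± 4.98 and 42.3 ± 3.85 CPM and Bop1 at 37.5 ± 2.28 and 40.3 ± 4.11 CPM. Rrp1, the most counted of the 11, had 139, 151 and 182 CPM against 141, 167, 165, 152 and 155 CPM, covering the same range (log2 fold change -0.01, SE 0.08, adjusted p = 0.963). Nop2, the methyltransferase gene whose flank is printed above, was at -0.17 (adjusted p = 0.467). Of 46 further large subunit factors outside the 51, 39 were lower on average (median log2 fold change -0.16), 4 fell and 0 rose. The 4 were Ppan (-0.51, adjusted p = 0.00996), the giant remodelling ATPase gene Mdn1 (-0.58, adjusted p = 0.0194), Urb1 (-0.42, adjusted p = 0.0259) and Rrp15 (-0.50, adjusted p = 0.0313), called in 11, 8, 7 and 6 of 11 fits with 1 library left out. The count of falls among the 46 was 1 without wild-type replicate 1 or 5, 2 without Atg5-deficient replicate 4, 7 and 8 without Atg5-deficient replicates 3 and 5, and 0 in the consecutive libraries.

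Read by library rather than by gene, 5 of the 6 Atg5-deficient libraries had similar medians over the 51 genes and replicate 5 stood apart. Relative to the wild-type mean of each gene, the median over the 51 genes was -0.29, -0.17, -0.26, -0.24 and -0.26 on the log2 scale in Atg5-deficient replicates 1, 2, 3, 4 and 6, and 0.06 in replicate 5, while the wild-type libraries lay between -0.07 and 0.10. Within some roles the other 5 libraries were less alike: the median of the 4 box H/ACA genes was -0.67 in replicate 3 and -0.21 in replicate 2. Replicate 3 was the lowest Atg5-deficient library in 18 of the 51 genes. Replicate 5 was the highest Atg5-deficient library in 34 of the 51 genes and lay above all wild-type libraries in 22. These positions were not counted over all tested genes, where the median of replicate 5 was -0.035. Replicate 5 nevertheless held the falls of the 7 called genes, with a median of -0.43 over them, beside 0.09 over the 44 genes not called. This contrast uses genes called with replicate 5 among the libraries and is a description. Summed over the 51 genes, the level was 4049 CPM in replicate 5, 3214 to 3452 CPM in the other Atg5-deficient libraries and 3610 to 4057 CPM in the wild-type libraries. Replicate 5 had the lowest mitochondrial share of the 11 libraries (4.92%, the others 6.54% to 8.41%) and the highest summed cell cycle level (1584 CPM). The part of these properties in its levels was not tested. Without replicate 5, 11 genes fell: Dkc1, Fbl, Mybbp1a, Nop14 and Npm1 were added and Rrp12 was lost. Because replicate 5 was singled out for its high values in genes such as these, the added falls are a description.

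**Figure D3:**
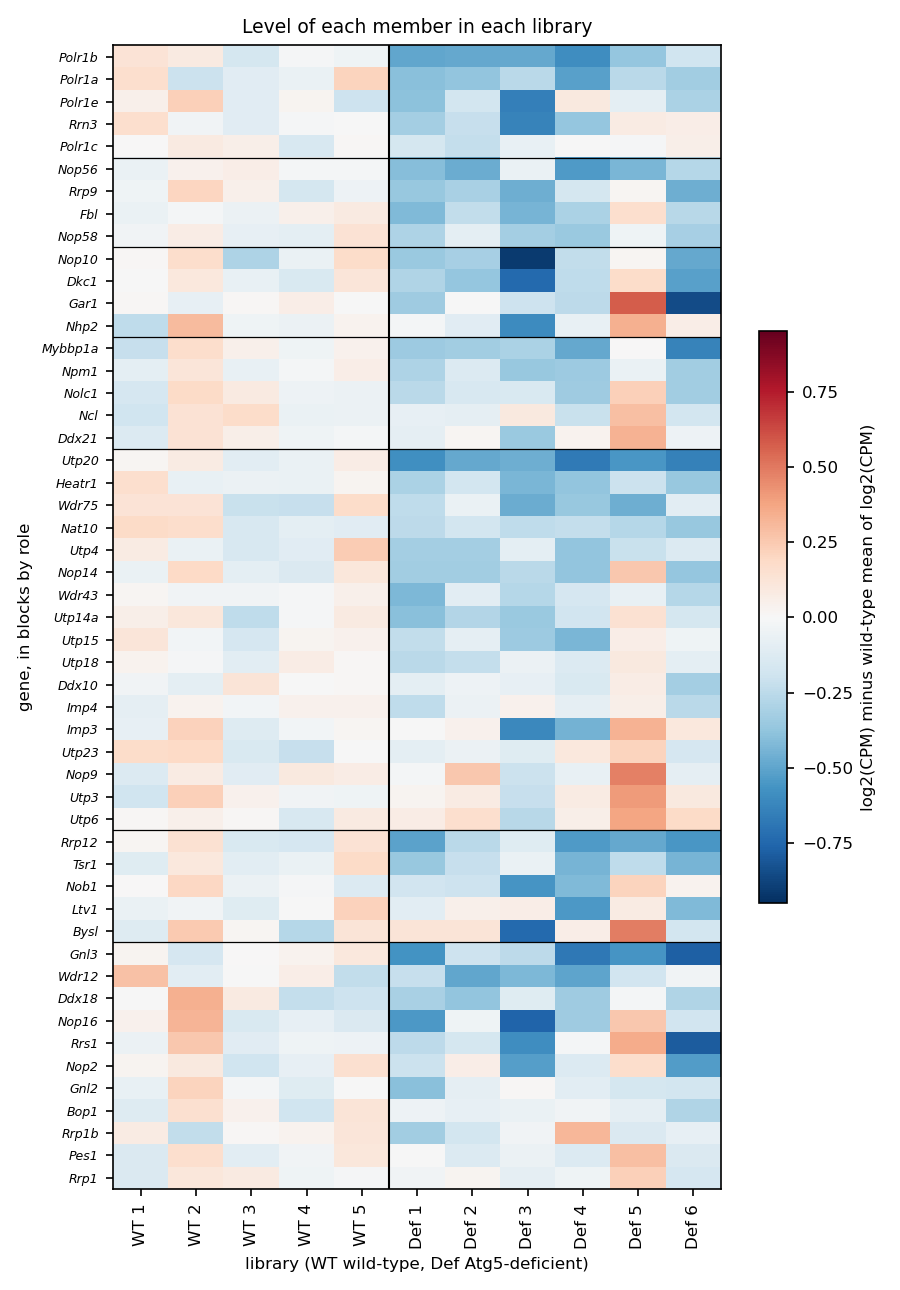
Level of each of the 51 genes (rows, in blocks by role) in each library (columns), as log2(CPM) minus the wild-type mean of log2(CPM) for that gene; blue is below and red above that mean. The columns are mostly blue in Atg5-deficient replicates 1, 2, 3, 4 and 6, and replicate 5 is red in 30 of 51 genes.

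Of the 7 genes that fell, 5 were among the 7 with the longest coding sequence. Coding lengths ranged from 192 bases for Nop10 to 8367 bases for Utp20. Of the 7 genes with at least 3000 coding bases, 5 fell (Polr1a, Polr1b, Utp20, Heatr1 and Rrp12, not Nat10 or Mybbp1a), against 2 of 25 with 1500 or more but under 3000 and 0 of 19 with fewer. These length classes were chosen after the values were seen, and there is no test. Among all 1745 tested coding genes with at least 3000 coding bases, 2.64% fell, close to the 2.43% of those under 1500. Across the 51 genes, Pearson's r between log2 coding length and log2 fold change was -0.31 (Spearman's rho -0.31), a description over genes that are not independent and share the same libraries; across 12904 coding genes r was 0.0035. Transcript GC content had an r of 0.12 over the 51.

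**Figure D4:**
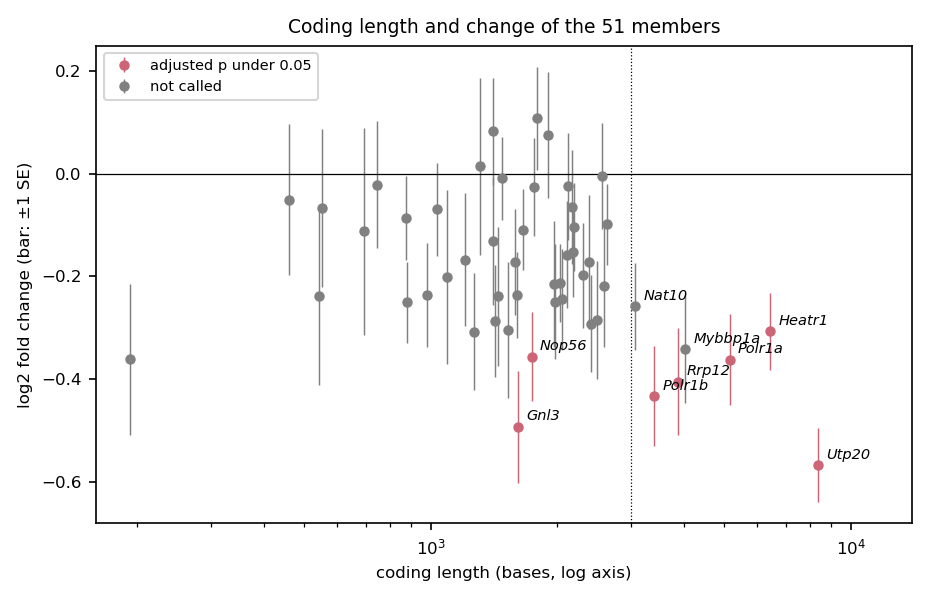
Log2 fold change with 1 standard error (y axis) against coding length in bases (x axis, logarithmic) for the 51 genes; red points passed the threshold and the dotted line marks 3000 bases. To the right of the line, 5 of 7 points are red.

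Other gene lists tied to growth moved in different directions. The cytosolic ribosomal protein genes were lower too, with 41 of 78 tested falling and 0 rising (median log2 fold change -0.35), and their summed level was 38892 to 42183 CPM in Atg5-deficient and 44348 to 58369 CPM in wild-type libraries, without overlap; replicate 5, at 39671 CPM, was not apart there. The 41 falls became 23 without wild-type replicate 5, 25 without wild-type replicate 4, 26 without wild-type replicate 2 or Atg5-deficient replicate 4, 27 without Atg5-deficient replicate 2, and 12 in the consecutive libraries. In the opposite direction, 13 of 25 cell cycle genes rose and 0 fell (median 1.11), among them Mki67, a proliferation marker, at 364 ± 105 and 147 ± 26.0 CPM (log2 fold change 1.30, SE 0.22, edgeR adjusted p = 0.00792). The 13 rises became 8 without wild-type replicate 4, 20 without Atg5-deficient replicate 3 and 1, Cdk1, in the consecutive libraries, where Mki67 had an adjusted p of 0.0560. Ccna2, Bub1 and Rrm2 each passed in 2 of 11 fits that left out a library. The cell cycle sum was 1252 to 1584 CPM in 5 Atg5-deficient libraries and 704 to 901 CPM in the wild-type libraries, with replicate 3 at 717 CPM. Myc, the transcription factor gene known for driving ribosome biogenesis, had 39.5 ± 11.5 and 45.1 ± 6.53 CPM (log2 fold change -0.19, SE 0.17, adjusted p = 0.557). Of 13 tested genes of the p53 pathway, which responds to faults in ribosome assembly among other stresses, 3 rose and 0 fell (edgeR, with 2 lower and 5 higher at an unadjusted p under 0.05). In this list 1 gene fell with upper-quartile factors, no low-count filter, at least 10 counts in all libraries, DESeq2 or limma-voom. Likewise 1 fell without Atg5-deficient replicate 3 or 6 or wild-type replicate 2. Any link to ribosome assembly was not tested. Cdkn1a, the cell cycle inhibitor p21, had 14.5 ± 5.73 and 4.96 ± 2.15 CPM (1.54, SE 0.33, adjusted p = 0.0172), Pmaip1, a pro-apoptotic gene, 45.1 ± 8.76 and 22.9 ± 6.49 CPM (0.97, adjusted p = 0.00989), and Trp53inp1 242 ± 4.40 and 195 ± 8.11 CPM (0.31, adjusted p = 0.0110). In the consecutive libraries 0 of the 13 passed. Trp53 itself stood at 59.9 ± 13.2 and 65.6 ± 4.36 CPM (-0.13, adjusted p = 0.589).

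**Figure D5:**
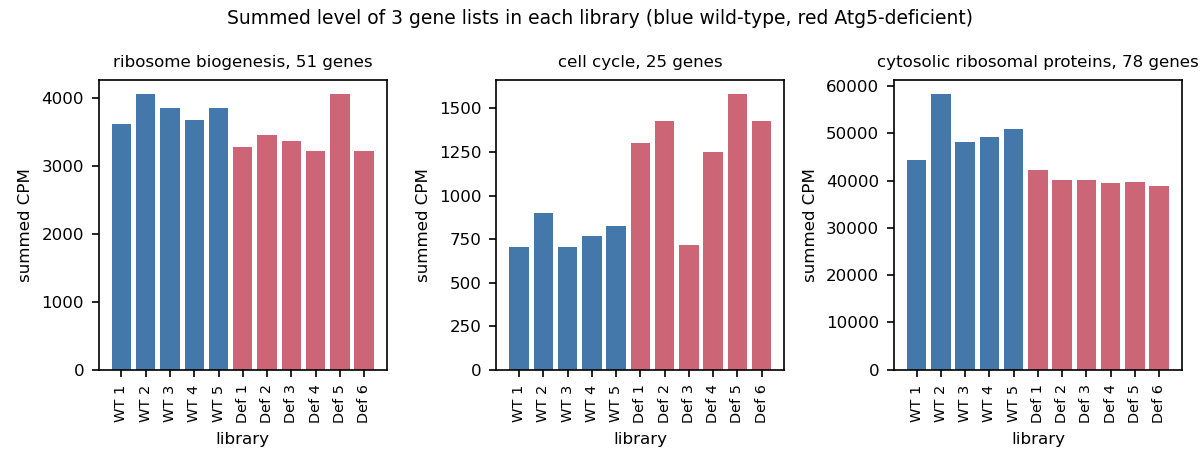
Summed CPM (y axis, from 0) of the 51 ribosome biogenesis genes, 25 cell cycle genes and 78 cytosolic ribosomal protein genes in each library, wild-type in blue and Atg5-deficient in red. The Atg5-deficient bars are lower for the ribosomal proteins, higher for the cell cycle except in replicate 3, and lower for ribosome biogenesis except in replicate 5 (4049 CPM).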

How the data were processed

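The deposited table holds raw read counts per Ensembl gene, 1 column per library. The authors aligned with STAR and counted with featureCounts (GRCm38), per the submitters' processing notes, after a stranded total RNA kit, per the labels. The annotation release, strand setting and multimapping rules were not given in the sources used here. Of 56748 identifiers, 52125 (91.9%) matched GENCODE M21. The members, lists and length classes were chosen with earlier results of these data known. Groups come from the genotype labels, and replicates are numbered in accession order. Genes passing filterByExpr (minimum count 10, total 15) were scaled by TMM, and 17987 genes were fitted with edgeR's robust quasi-likelihood model, Benjamini-Hochberg adjusted; the common biological coefficient of variation was 0.341. CPM are TMM-scaled, except summed markers (total counts). In a library, 3 counts equal 0.0631 to 0.0977 CPM. Named are all called genes, and per role the gene with the smallest p and that with the most counts; others were named after their values were seen. The share of annotated rRNA genes was close to nil and was not tested. The fit was checked on simulated counts. Software: R 4.3.3, DESeq2 1.42.0, edgeR 4.0.16, limma 3.58.1. The spread of the 51 genes without Atg5-deficient replicate 5 and the calls of the other lists under each setting were added after the data had been seen.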

Additional observations from a re-analysis of the deposited data

Results flagged for a closer look

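Within each group, the highest and lowest library of every one of the 51 genes was compared with the rest by Dixon's ratio at its 95% level, and 7 of 102 group ranges were singled out. Chance alone singles out about 1 in 20 such groups. Atg5-deficient replicate 5 was far above the other Atg5-deficient libraries in 5 of them: Fbl (67.6 CPM, the others 44.5 to 51.7), Nolc1 (101.5 CPM, the others 68.9 to 78.6), Utp14a (59.6 CPM, the others 41.0 to 47.9), Nop14 (81.5 CPM, the others 52.5 to 57.0) and Pes1 (51.3 CPM, the others 38.3 to 42.0). Bop1, the partner of Pes1, was far lower in Atg5-deficient replicate 6 (32.9 CPM) than in the other Atg5-deficient libraries (37.8 to 39.1). Rrs1, a large subunit factor, was far higher in wild-type replicate 2 (28.1 CPM) than in the other wild-type libraries (21.7 to 22.8).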

How the results depend on the processing

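Of the 51 genes, 7 fell and 0 rose in the reported fit, and 0 rose in any of 20 alternatives. The count of called genes was 14 with upper-quartile scaling, 15 with limma-voom and sample quality weights, 10 with DESeq2, and 1 in the 8 libraries with consecutive label numbers (Atg5-deficient replicates 1 to 5 and wild-type replicates 2 to 4), where fewer samples enter. DESeq2 added Mybbp1a, Npm1 and Tsr1 to the 7, and limma-voom added these and Fbl, Nop58, Utp4, Wdr12 and Wdr43. The count ranged from 3 to 11 when each library was left out in turn. Over all genes 1231 were called, 2333 by DESeq2, 3426 by limma-voom, 176 in the consecutive libraries, and 642 to 2143 with 1 library left out. With upper-quartile scaling 584 genes rose and 685 fell, beside 797 and 434. Of 459 fold changes of single genes in 9 such settings, 10 changed sign, all in genes that were not called. In the consecutive libraries these were Gar1 (0.0029), Utp23 (0.065) and Rrp1b (0.0071), with limma-voom Nhp2 (0.0037), Ddx21 (0.019), Utp23 (0.0039) and Rrp1 (0.012), with the hepatocyte marker level as a covariate Ddx21 (0.011) and Utp23 (0.016), and with upper-quartile scaling Bysl (-0.061). With 1 library left out, the sign changed in 9 genes, over the ranges -0.14 to 0.039 (Nhp2), -0.094 to 0.023 (Ncl), -0.081 to 0.055 (Ddx21), -0.072 to 0.035 (Utp23), -0.020 to 0.13 (Nop9), -0.16 to 0.021 (Imp3), -0.098 to 0.13 (Bysl), -0.096 to 0.023 (Pes1) and -0.060 to 0.025 (Rrp1). The cause was not tested. No paired analysis was possible because replicate numbers are in accession order and the labels pair no libraries. The 51 genes had at least 177 counts in every library, whereas the 2 called snoRNAs had as few as 38 (Snord82) and 56 (Snord57). The part of depth in the spread was not tested. The spread between libraries, with 6 against 5, limits the changes that can be called.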

Other observations

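Lists of neighbouring machineries were counted in the same fit. RNA polymerase III makes transfer RNAs and a short ribosomal RNA that is not cut from the RNA polymerase I precursor. Of 22 genes of RNA polymerase III and its factors, 0 were called by edgeR (6 lower and 1 higher at an unadjusted p under 0.05). Their median log2 fold change was -0.10. Of 24 genes of the RNA exosome and RNase MRP, 1 fell: Rpp40, with 0.996 ± 0.203 CPM in the Atg5-deficient group and 2.12 ± 0.473 CPM in the wild-type group (log2 fold change -1.09, SE 0.27, edgeR adjusted p = 0.0292), a low level at which the call held in 5 of 11 fits that left out a library. Of 12 snoRNP assembly genes 0 were called (edgeR; 0 lower and 1 higher at an unadjusted p under 0.05; median -0.02), and of 20 genes of the MYC network and mTORC1 0 were called (1 lower and 4 higher at an unadjusted p under 0.05; median 0.03).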
